A study of Mus musculus with 13 samples.

Results

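The miRNAs described here are the 8 mature miRNAs of an epithelial set: both arms of miR-205 (mmu-miR-205-5p and mmu-miR-205-3p), mmu-miR-203-3p, and the 5 guide strands of the miR-200 family (mmu-miR-200a-3p, mmu-miR-200b-3p, mmu-miR-200c-3p, mmu-miR-141-3p and mmu-miR-429-3p). The set is defined by the names of its members, not by a cutoff on their signals, and all 8 were among the 1079 mouse miRNAs on the arrays. The members were, however, chosen with earlier results of these data known. The question was whether miR-205 was higher with or without the rest of this set in melanomas of mice that ate curcumin. B78H1, the injected line, is a clone of amelanotic mouse melanoma cells derived from B16 melanoma that lacks Tap-2 and MHC class I. All mice were male C57BL/6 with an intact immune system and received cells under the skin of each flank. The curcumin group (7 tumors) ate chow with 4% curcumin and the normal-diet group (6 tumors) ate standard chow of the same batch. The diets began 14 days before the injection, and tumor tissue was collected on day 28. Each tumor was 1 array. The labels give a number per tumor but do not name the mouse or the flank, so p-values measure the spread between these samples.

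miR-205 and miR-203 are abundant in skin and other stratified epithelia, where miR-203 restrains the proliferation of basal cells and promotes their differentiation. The miR-200 family, together with miR-205, represses the transcription factors Zeb1 and Zeb2, which in turn repress E-cadherin. Loss of these miRNAs is a known feature of the epithelial-to-mesenchymal transition. Melanocytes descend from the neural crest and are not epithelial cells, and a flank tumor also holds stroma, vessels, blood cells and, at its edge, may hold skin.

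The sequences of the 8 miRNAs are shown because their seeds define the groups used below. Each is the RefSeq mature miRNA, 5′ to 3′, with the seed (bases 2 to 8, which pair with the target) in capitals.
mmu-miR-205-5p: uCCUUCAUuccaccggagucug
mmu-miR-205-3p: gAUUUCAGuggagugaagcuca
mmu-miR-203-3p: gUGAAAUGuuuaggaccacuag
mmu-miR-200b-3p: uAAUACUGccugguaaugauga
mmu-miR-200c-3p: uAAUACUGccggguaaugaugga
mmu-miR-429-3p: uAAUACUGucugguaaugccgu
mmu-miR-200a-3p: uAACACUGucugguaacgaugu
mmu-miR-141-3p: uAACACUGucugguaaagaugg

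The miR-200 family fell into 2 seed groups, AAUACUG in 3 members (mmu-miR-200b-3p, mmu-miR-200c-3p and mmu-miR-429-3p) and AACACUG in 2 members (mmu-miR-200a-3p and mmu-miR-141-3p). miR-205-5p, miR-205-3p and miR-203-3p each had a seed of their own. Among the 840 array miRNAs with a RefSeq sequence, none outside the set shared any of these seeds. The seed groups do not follow the genes. In the RefSeq annotation of GRCm38.p6, Mir200b, Mir200a and Mir429 lay within 1846 bases of the minus strand of chromosome 4, overlapping the gene Gm13648, with the mature strands at chr4:156055685-156055706 (mmu-miR-200b-3p), chr4:156054911-156054932 (mmu-miR-200a-3p) and chr4:156053916-156053937 (mmu-miR-429-3p). Mir200c and Mir141 lay within 477 bases of the minus strand of chromosome 6, with no other annotated gene over them, at chr6:124718324-124718346 (mmu-miR-200c-3p) and chr6:124717917-124717938 (mmu-miR-141-3p).

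mmu-miR-200a-3p and mmu-miR-141-3p, which come from different clusters, differed at 2 of 22 bases (C17A and U22G, counted from the 5′ end, the base of mmu-miR-200a-3p first). mmu-miR-200b-3p and mmu-miR-200c-3p also differed at 2 of 22 (U11G and A22G, the base of mmu-miR-200b-3p first). Signals of such close sequences may share hybridization, which was not tested. Both miR-205 arms came from the minus strand of chromosome 1, at chr1:193507503-193507524 (5p) and chr1:193507467-193507488 (3p), inside the long noncoding RNA gene Mir205hg, which is 3751 bases long. mmu-miR-203-3p lay on the plus strand at chr12:112130927-112130948. These positions are those of RefSeq, since the arrays were designed on an older assembly.

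The values are the log2 values deposited by the authors, which are quantile normalized, so that each array has the same distribution and its median is 2.09. A constant of 4.39 had been added to every normalized signal before the log2 step. A normalized signal of 0 therefore lies near 2.13, and values below that come from negative normalized signals. Near this level the sign before normalization can differ. mmu-miR-429-3p was 2.05 in curcumin tumor 3 (background-subtracted signal 0.25) and 2.19 in normal-diet tumor 4 (−0.42). The constant compresses differences between dim positive signals, and differences that involve negative signals depend on its size. The scanner software called a miRNA detected or not on each array, and the lowest detected miRNA of an array lay between 2.27 and 3.19. Summed signals per array were 114095 to 281508 in curcumin tumors and 150272 to 244666 in normal-diet tumors, and 272 to 370 and 313 to 412 miRNAs were detected. Curcumin tumor 5 had both the lowest sum and the fewest detected miRNAs. The arrays lay on 2 slides (3 curcumin and 2 normal-diet tumors on slide 1, 4 of each on slide 2). On both slides the curcumin tumors occupied one line of positions and the normal-diet tumors the other, so position and diet cannot be told apart. In a bulk tumor, fewer cells of a type and less RNA per cell cannot be told apart either.

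miR-205-5p was high in every curcumin tumor and spread over a wide range in normal-diet tumors. The log2 values of curcumin tumors 1 to 7 were 10.44, 10.44, 9.78, 10.30, 7.78, 10.76 and 9.13. Those of normal-diet tumors 1 to 6 were 1.56, 2.27, 4.17, 1.73, 7.37 and 7.21. The groups did not overlap, but curcumin tumor 5 lay only just above normal-diet tumor 5. Detection calls were made in 7 of 7 curcumin tumors and in 3 of 6 normal-diet tumors, namely 3, 5 and 6. In the other 3 normal-diet tumors it could not be told from background.

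The spots of the arrays showed the same split. Each of the 8 miRNAs had 40 spots per array, from 1 or more probes. For miR-205-5p all 40 spots were well above background on each of the 7 curcumin arrays and on those of normal-diet tumors 5 and 6. On the arrays of normal-diet tumors 1, 2, 3 and 4 the number was 1, 2, 17 and 0. The miRNA was read by 2 probes with 20 spots each. Probe 1 gave 39.3 to 1018 (median 563) in curcumin tumors and −1.03 to 85.3 in normal-diet tumors, in units of background-subtracted intensity. Probe 2 gave 62.8 to 1624 (median 921) and −0.67 to 146. The probes ranked the 13 arrays almost alike (Spearman's rho 0.99, a description over 13 arrays of the same RNA). In curcumin tumors the replicate spots of a probe varied by 2.23% to 4.49% (coefficient of variation), far less than the tumors did.

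Curcumin tumors had a mean miR-205-5p log2 value of 9.80 ± 1.05 (SD, n = 7), against 4.05 ± 2.67 (SD, n = 6) in normal-diet tumors, which is a difference of 5.75 (standard error 0.98, 95% interval 3.66 to 7.85, adjusted p = 0.00108 in limma). This is 53.9-fold on the scale of the signal plus the constant. In the exact two-sided permutation test p was 0.000583, the smallest that 7 against 6 tumors allow. In limma 20.9% of all 1079 miRNAs passed the adjusted threshold of 0.05, and 9.55% of the 1079 passed it and were higher in curcumin tumors. In 4.17% of them every curcumin tumor lay above every normal-diet tumor. The difference of miR-205-5p was the largest of the 1079. It passed the threshold without any single array, at 5.25 to 6.42 (largest adjusted p = 0.00372). Because miR-205 was chosen with earlier results of these data known, this rank and these p-values are descriptions and not independent support.

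The size of the difference depended on how the dim normal-diet values were treated, and it was 3.47 with normexp background correction and 9.32 with a floor at the smallest positive signal. On slide 1 the means were 10.22 and 1.91 (difference 8.31, adjusted p = 9.33e-05 in limma). On slide 2, which held normal-diet tumors 3 to 6, they were 9.49 and 5.12 (difference 4.37, adjusted p = 0.106), so the call was lost there. The groups stayed apart with each floor after quantile normalization, with both scalings to the 75th percentile and with normexp. They overlapped without normalization between arrays. In the signals before normalization, curcumin tumor 5 gave 102 and normal-diet tumors 5 and 6 gave 232 and 124. As a share of the signal of its array miR-205-5p was 0.0896% in the lowest curcumin tumor and 0.0947% in the highest normal-diet tumor, so that these shares overlapped, although the difference between the diets exceeded the spread (exact permutation test, two-sided, p = 0.0035).

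**Figure D1:**
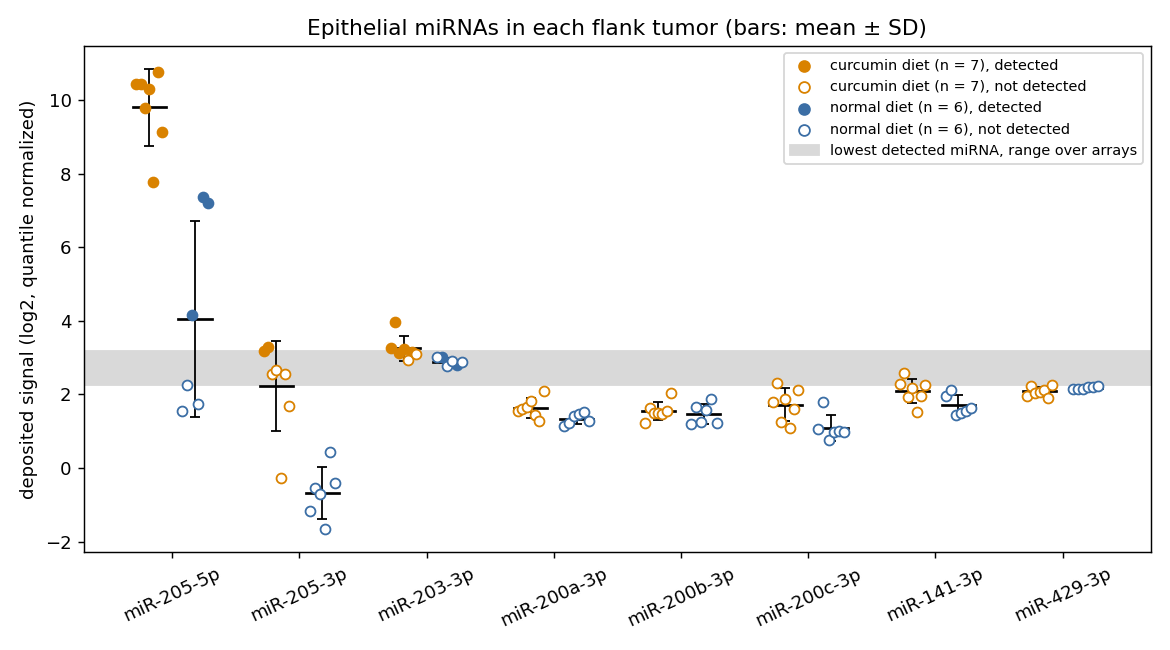
Deposited log2 signal (y axis) of the 8 epithelial miRNAs (x axis) in each of 7 curcumin and 6 normal-diet tumors, with filled points where the miRNA was called detected, bars for mean ± SD and a grey band from 2.27 to 3.19 for the lowest detected miRNA of the arrays. miR-205-5p stands far above the band in all 7 curcumin tumors and in normal-diet tumors 5 and 6, while the 5 miR-200 family members lie within or below the band as open points in every tumor.

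miR-205-3p, the other arm of the same hairpin, was also higher in curcumin tumors, but most of its values lay below detection. Its log2 values were 3.17, 3.30, 2.56, 2.67, −0.27, 2.56 and 1.68 in curcumin tumors 1 to 7 and −1.16, −0.55, −0.71, −1.66, 0.45 and −0.41 in normal-diet tumors 1 to 6. The groups overlapped, since curcumin tumor 5 lay below normal-diet tumor 5. The arm was detected only on the arrays of curcumin tumors 1 and 2. Of its spots, 17 of 280 were well above background in curcumin tumors and 1 of 240 in normal-diet tumors. In every normal-diet tumor the background-subtracted signal was negative, from −4.97 to −3.32, whereas the median in curcumin tumors was 1.60.

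Curcumin tumors had a mean miR-205-3p log2 value of 2.24 ± 1.22 (SD, n = 7), against −0.68 ± 0.71 (SD, n = 6), which is a difference of 2.91 (standard error 0.51, 95% interval 1.81 to 4.02, adjusted p = 0.00136 in limma, exact permutation p = 0.00175). The difference was 0.16 with normexp background correction and 6.14 with a floor at the smallest positive signal. No fold change or rank is given, because the arm was detected in no normal-diet tumor and the curcumin mean lay below the level at which the normal-diet arrays detect a miRNA (2.60). The call was lost with a floor of 1 (difference 1.12, adjusted p = 0.159), with both scalings to the 75th percentile (1.01 and 1.11, adjusted p = 0.175 in both), without normalization (1.08, adjusted p = 0.239), with a floor at the lowest detected miRNA (0.95, adjusted p = 0.342) and on slide 2 alone (2.24, adjusted p = 0.118).

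Within the 7 curcumin tumors the arms ranged together. Pearson's r between them was 0.94 (exact permutation p = 0.00873, 0.0262 after Benjamini-Hochberg adjustment over 3 relations computed) and Spearman's rho was 0.71 (exact permutation p = 0.0813, adjusted 0.122). The relation rested on curcumin tumors 5 and 7, the lowest in both arms. Without them r was 0.24 (n = 5). miR-205-5p also ranged with the log2 total signal of the array (r = 0.76, exact permutation p = 0.0571, adjusted 0.0857, and rho = 0.43, exact permutation p = 0.327, adjusted 0.327). The third relation, with miR-203-3p, gave r = 0.55 (exact permutation p = 0.172, adjusted 0.172) and rho = 0.77 (exact permutation p = 0.0532, adjusted 0.122). The slides hold 3 and 4 curcumin tumors, too few for a value on each.

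**Figure D2:**
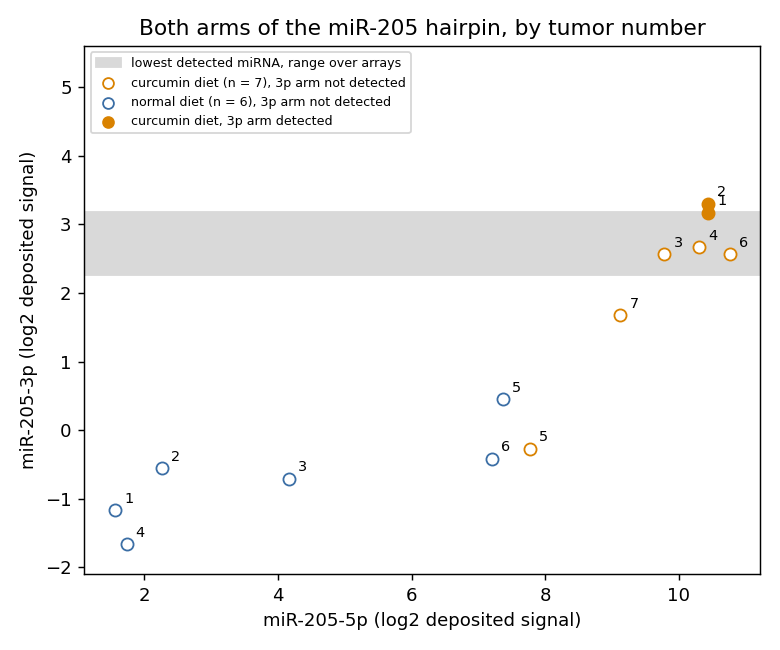
Deposited log2 signal of miR-205-3p (y axis) against that of miR-205-5p (x axis), 1 point per tumor with its number, filled where the 3p arm was detected and with the grey band of the lowest detected miRNA from 2.27 to 3.19. Curcumin tumors 1 and 2 are the only filled points, and curcumin tumor 5 lies beside normal-diet tumors 5 and 6 in both arms.

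miR-203-3p, the keratinocyte miRNA, lay close to the detection limit in both groups. Its log2 values were 3.27, 3.96, 3.14, 3.23, 2.93, 3.15 and 3.09 in curcumin tumors 1 to 7 and 3.00, 3.00, 2.78, 2.90, 2.79 and 2.87 in normal-diet tumors 1 to 6. In these normalized values all curcumin tumors but tumor 5 lay above all normal-diet tumors, by small steps apart from tumor 2. The order differed in the sums of all probes before normalization. There normal-diet tumors 2 and 5 gave 6.84 and 6.83. Curcumin tumors 3, 5, 6 and 7 lay below them (5.10, 0.51, 5.62 and 4.61) and curcumin tumors 1, 2 and 4 above (7.07, 11.35 and 6.86). It was detected on the arrays of curcumin tumors 1, 2, 3, 4 and 6 and of normal-diet tumors 2 and 5. Well above background were 45 of 280 spots in curcumin tumors, 21 of them in tumor 2, and 7 of 240 spots in normal-diet tumors.

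miR-203-3p had means of 3.25 ± 0.33 (SD, n = 7) with curcumin and 2.89 ± 0.10 (SD, n = 6) without, a difference of 0.36 (standard error 0.14, 95% interval 0.05 to 0.67) that did not pass after adjustment over all miRNAs (adjusted p = 0.0918 in limma). The exact permutation test gave p = 0.00583 without adjustment, beside 33.4% of all miRNAs with an exact p under 0.05. Without curcumin tumor 2 the difference was 0.24 (adjusted p = 0.0918). It passed the threshold with a floor at the lowest detected miRNA of each array (0.84, adjusted p = 0.0479). Over the other values and tests it did not pass and ranged down to 0.07. In limma the adjusted p was 0.786 and 0.529 with the scalings to the 75th percentile of detected and of all miRNAs, and 0.788 without normalization.

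None of the 5 miR-200 family members was detected on any of the 13 arrays, as was the case for 55.1% of all miRNAs. Of 2600 spots, 11 were well above background (0.423%), beside 0.32% of the spots of all 594 miRNAs that no array detected. By diet there were 3 of 1400 spots in curcumin tumors (0.214%) and 8 of 1200 in normal-diet tumors (0.667%). No member had more than 2 of its 40 spots well above background on an array. The arrays therefore give upper limits for these miRNAs in both groups, and the values below describe signals near zero.

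In the AAUACUG group, mmu-miR-200b-3p had log2 values of 1.23 to 2.05 (median 1.49) in curcumin tumors and 1.20 to 1.88 (median 1.41) in normal-diet tumors, a difference of 0.10 (standard error 0.15, 95% interval −0.22 to 0.41, adjusted p = 0.726 in limma). mmu-miR-429-3p had 1.91 to 2.25 (median 2.06) and 2.14 to 2.23 (median 2.17), a difference of −0.09 (95% interval −0.27 to 0.09, adjusted p = 0.518). Both overlapped widely between the diets. mmu-miR-200c-3p had 1.08 to 2.32 (median 1.81) in curcumin tumors and 0.75 to 1.79 (median 0.99) in normal-diet tumors. Its groups overlapped through normal-diet tumor 2, and the difference of 0.63 (standard error 0.21, 95% interval 0.17 to 1.09) had an adjusted p of 0.0505 in limma and an exact permutation p of 0.0233. It passed the threshold without curcumin tumor 3 (0.71, adjusted p = 0.0416), curcumin tumor 5 (0.74, adjusted p = 0.0177) or normal-diet tumor 2 (0.77, adjusted p = 0.0191).

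In the AACACUG group, mmu-miR-200a-3p had log2 values of 1.27 to 2.09 (median 1.61) in curcumin tumors and 1.13 to 1.52 (median 1.36) in normal-diet tumors, a difference of 0.29 (standard error 0.13, adjusted p = 0.127 in limma, exact permutation p = 0.0332). mmu-miR-141-3p had 1.53 to 2.57 (median 2.18) and 1.45 to 2.13 (median 1.59), a difference of 0.40 (standard error 0.17, adjusted p = 0.109, exact permutation p = 0.039). In both the diets overlapped. mmu-miR-141-3p passed the threshold only without curcumin tumor 5 (0.49, adjusted p = 0.0295), the array with the lowest summed signal.

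**Figure D3:**
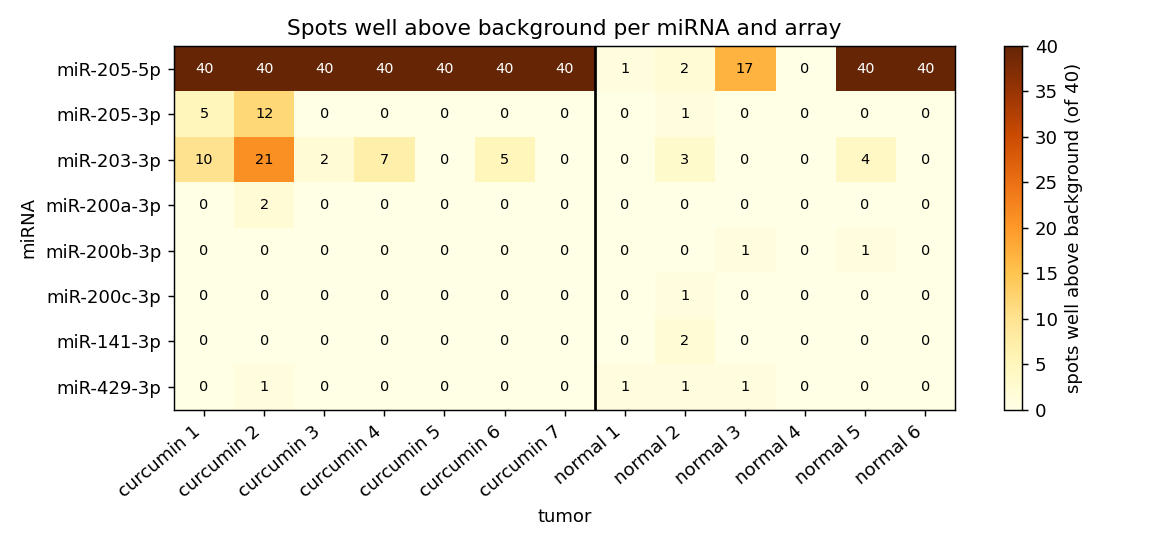
Number of the 40 spots per array that were well above background (color and printed number), for each of the 8 epithelial miRNAs (rows) in each tumor (columns, curcumin tumors left of the black line). All 40 spots of miR-205-5p are filled in the 7 curcumin tumors and in normal-diet tumors 5 and 6, miR-203-3p reaches 21 in curcumin tumor 2, and no miR-200 family member exceeds 2.

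Of the 8 epithelial miRNAs, 2 passed the threshold, both arms of miR-205, both higher in curcumin tumors, beside 20.9% of all miRNAs that passed and 9.55% that passed and were higher. A count of 2 in 8 is near the 20.9% of either direction and above the 9.55% that were higher. Both calls come from the same hairpin, so the count does not set the set as a whole apart. Among the miRNAs detected on no array, as were the 5 of the miR-200 family, 3.03% passed the threshold. Without curcumin tumor 5 the count was 4, with mmu-miR-200c-3p and mmu-miR-141-3p added. The count was 1 (miR-205-5p) in the settings in which miR-205-3p was lost, apart from the floor at the lowest detected miRNA, where miR-203-3p took its place, and slide 2 alone, where it was 0. The curcumin mean was the higher one in 7 of the 8, against 50.2% of all miRNAs. Of these, mmu-miR-200a-3p, mmu-miR-200b-3p, mmu-miR-200c-3p and mmu-miR-141-3p were detected on no array, and with normexp they differed by only 0.004 to 0.03. The count and the median therefore rest partly on signals near background. The median difference over the 8 miRNAs was 0.38, beside 0.02 for the 594 miRNAs detected on no array and −0.10 for the 243 detected on all arrays.

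miR-205-5p was set against each of the other 7 within the same tumor, as the difference of their log2 values. This difference was larger in curcumin than in normal-diet tumors by 5.12 (standard error 1.12) for mmu-miR-200c-3p up to 5.85 (standard error 1.09) for mmu-miR-429-3p, and by 5.39 (standard error 1.09) for mmu-miR-203-3p. For these 6 the exact two-sided permutation p was the smallest possible, 0.000583 (0.00068 after Benjamini-Hochberg adjustment over 7 comparisons). Against its own second arm, miR-205-3p, it was larger by 2.84 (standard error 0.82, exact permutation p = 0.00466, adjusted 0.00466). With a floor at the smallest positive signal 5 of the 7 comparisons had an exact p under 0.05. In the same comparison 99.9% of the 1078 other miRNAs gave an exact p under 0.05, so the values mainly restate the difference of miR-205-5p itself. As the miR-200 family was detected on no array and miR-205-3p on 2 of 13, they say nothing of changes of these miRNAs below detection.

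**Figure D4:**
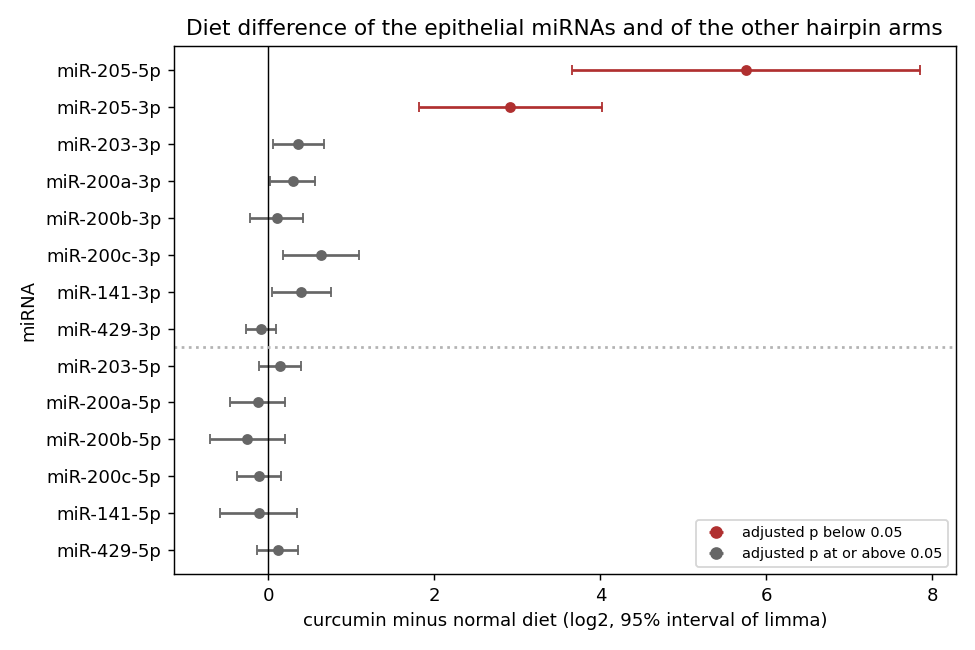
Difference between curcumin and normal-diet tumors (x axis, log2 units, with the 95% interval of limma) for the 8 epithelial miRNAs above the dotted line and the other arms of their hairpins below it, in red where the adjusted p was below 0.05. Only the arms of miR-205, at 5.75 and 2.91, are red, and every other interval ends below 1.5.

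**Figure D5:**
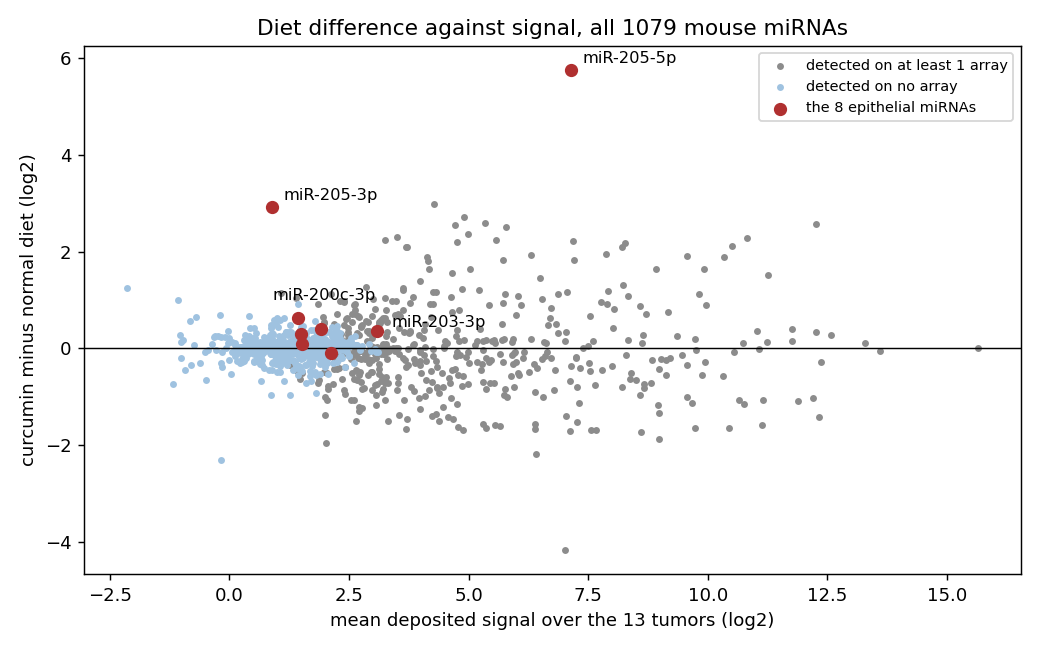
Difference between curcumin and normal-diet tumors (y axis, log2) against the mean deposited signal over the 13 tumors (x axis, log2) for all 1079 mouse miRNAs, with the 8 epithelial miRNAs in red and miRNAs detected on no array in blue. miR-205-5p, at 5.75, is the highest point, and the miR-200 family lies inside the blue cloud of undetected miRNAs.

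The arrays also held 6 passenger strands of the same hairpins (mmu-miR-203-5p, mmu-miR-200a-5p, mmu-miR-200b-5p, mmu-miR-200c-5p, mmu-miR-141-5p and mmu-miR-429-5p). All 6 were detected on no array, and none passed the threshold, with differences of −0.26 to 0.14 (adjusted p from 0.475 to 0.776 in limma).

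A list of further epithelial miRNAs held 5 of these passenger strands and 5 other miRNAs. Of the other 5, 3 rose, none fell and mmu-miR-375-3p was detected on no array, beside 9.55% of all miRNAs that rose. The 3 that rose were mmu-miR-183-5p (7.38 against 6.25, difference 1.12, adjusted p = 0.00389), mmu-miR-96-5p (8.47 against 7.29, difference 1.18, adjusted p = 0.00565) and mmu-miR-182-5p (6.98 against 6.35, difference 0.63, adjusted p = 0.0384), which are made from 1 cluster and are also known from sensory cells and melanoma. mmu-miR-31-5p, a miRNA of activated keratinocytes that was detected in all tumors, had a mean log2 value of 9.82 in curcumin and 9.64 in normal-diet tumors, a difference of 0.18 (adjusted p = 0.586).

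Markers of other cell types also included miRNAs past the threshold, and their counts stand beside the 20.9% of all miRNAs that passed and the 9.55% that rose. Of 5 fibroblast and stromal miRNAs 3 rose and none fell, and their summed signal (log2) was 9.02 to 10.12 in curcumin and 7.51 to 8.69 in normal-diet tumors, without overlap. Of 5 blood cell miRNAs 4 rose (9.01 to 10.58 against 7.55 to 9.95), and of 2 endothelial miRNAs 1 rose (8.04 to 9.69 against 7.19 to 8.18). Of 4 skeletal muscle miRNAs 1 rose, with sums of 5.51 to 9.94 and 5.25 to 9.29. None of these fell, but the lists did not all point one way. The curcumin mean was lower, short of the threshold, for the blood cell miRNA mmu-miR-451 (6.89 against 7.69, adjusted p = 0.378 in limma). The same held for the stromal mmu-miR-145-5p (4.00 against 4.15, adjusted p = 0.721). Of 2 melanocytic miRNAs, mmu-miR-211-5p fell (detected in 4 of 7 curcumin and 6 of 6 normal-diet tumors) and mmu-miR-204-5p did not pass the threshold (detected in 0 of 7 and 3 of 6). The part of these cell types in the difference of miR-205 was not tested.

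Likeness to miR-205-5p over the 13 tumors was measured as Pearson's r between deviations from the mean of the own diet group, for the 252 miRNAs detected on all curcumin arrays. The other 7 epithelial miRNAs were not detected on all of these arrays and so could not be among the most alike. The 5 most alike were mmu-miR-21-5p (r = 0.91, rho = 0.90), mmu-miR-22-3p (0.88 and 0.89), mmu-miR-29a-3p (0.86 and 0.94), mmu-miR-29b-3p (0.83 and 0.90) and mmu-miR-140-3p (0.81 and 0.82). Without normal-diet tumors 5 and 6, the farthest from the median, r was 0.80 to 0.85 for these 5. All 5 rose, by 1.52 (mmu-miR-29a-3p) to 2.57 (mmu-miR-21-5p), beside 9.55% of all 1079 miRNAs that rose. The share that rose among the 252 candidates, which were picked by detection in curcumin tumors, was not computed. For miR-205-3p r was 0.68 (rho = 0.79), and for miR-203-3p and the miR-200 family it lay between −0.05 and 0.14. Within the diets r spread more widely for these 6, from −0.47 to 0.66 over the 7 curcumin tumors and from −0.70 to 0.62 over the 6 normal-diet tumors, and for miR-203-3p it was 0.55 and −0.70. These are descriptions, as the miRNAs share array, total signal and normalization. Most values of miR-205-3p and all values of the miR-200 family lay below detection, so their r describes signals near background.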

How the data were processed

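Total RNA of 13 flank tumors was labeled with Cy3 and hybridized to 1-color mouse miRNA arrays. The authors extracted intensity values with Agilent's software (Feature Extraction, version 10.10.1.1). Per the methods, background-corrected spots of the same probe were averaged. The authors then summed the probes of each miRNA, quantile normalized the sums and deposited log2 values. Taking the detected probes of a miRNA where it was detected and all its probes elsewhere, quantile normalizing, adding 4.39 and taking log2 gave all 14027 of these within 1e-04. The deposited values were tested two-sided in limma (lmFit, eBayes, no covariates; limma 3.58.1 in R 4.3.3) over 1079 mouse miRNAs, adjusted by Benjamini-Hochberg, at a threshold of 0.05. Single values were tested in R by exact permutation over 1716 splits. Relations within the curcumin tumors were tested by exact permutation in Python, with ranks and adjustment from scipy 1.17.1. The number of arrays limits the precision. Summed markers are log2 of the added values of a list.

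Alternatives were signals summed from the scanner files with other floors (the smallest positive value, 1, or the lowest detected miRNA) or scalings (75th percentile of detected or of all miRNAs, none), normexp (offset 50), only detected miRNAs, the methods' t-test, slides, the replicate number as a block, and each array left out. In simulated arrays, 200 of 1079 miRNAs were shifted by 2 (log2). Of these, limma called 99.5%, with 15 false calls among 214. The simulated noise was normal, independent between miRNAs and equally wide in both diets, without a detection limit, normalization or slides. The simulation therefore does not give the error rate of the calls in the real arrays. Virus miRNAs (57) were left out. The miRNAs named are the 8, their other arms, the 5 most like miR-205-5p and listed markers on which a result turns. The members and lists were chosen with earlier results of these data known.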

Additional observations from a re-analysis of the deposited data

Results flagged for a closer look

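In 16 groups of values (the 8 epithelial miRNAs in each diet group), 2 had 1 tumor far from the others, where chance gives about 1 in 20 groups. For miR-203-3p this was curcumin tumor 2, at a log2 value of 3.96 with the next at 3.27, which was called detected with 21 of 40 spots well above background. For mmu-miR-200c-3p it was normal-diet tumor 2, at 1.79 with the next at 1.06, which was not detected and had 1 of 40 spots well above background.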

How the results depend on the processing

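The difference of miR-205-5p kept its direction in all 14 settings and passed the threshold in 13, at 3.47 to 9.32. The exception was slide 2 alone (4.37, adjusted p = 0.106). Without each array in turn it was 5.25 to 6.42. The number of miRNAs past the threshold was 226, and it was 112 when arrays were scaled to their overall 75th percentile, 68 with no normalization between arrays, 147 by the methods' unequal-variance t-test, 111 on slide 1 and 15 on slide 2, and 157 to 250 without 1 array. The cause of these changes in number was not tested, and a slide alone also holds fewer samples. Of these calls 45.6% were higher in curcumin tumors, 66.1% with the overall 75th percentile and 30.9% with no normalization. miRNAs detected on all arrays had a median difference of −0.10, which became −0.25 when arrays were scaled to the 75th percentile of these, and −0.26 with no normalization. Of the 8 epithelial miRNAs, 2 passed, but 1 with a floor of 1, with either 75th percentile, without normalization or with only detected miRNAs (which leaves out miR-205-3p), 0 on slide 2, and 2 to 4 without 1 array (4 without curcumin tumor 5). mmu-miR-429-3p turned from −0.09 to 0.37 with the floor at the lowest detected miRNA, where an undetected miRNA takes the floor of its array. How that level is computed was set after seeing the data. Over the other values and tests the undetected miR-200 family members differed by −1.71 (mmu-miR-429-3p, adjusted p = 0.572 in limma) to 3.37 (mmu-miR-141-3p, adjusted p = 0.12). Both extremes came with the floor at the smallest positive signal. With the floor of 1 after quantile normalization mmu-miR-200a-3p, mmu-miR-200b-3p, mmu-miR-200c-3p and mmu-miR-429-3p differed by 0 and mmu-miR-141-3p by 0.10. All 7 paired differences passed in 6 of the other settings of the values, 5 passed with the smallest positive floor and 6 on slide 2. On slide 1 the exact test of 3 against 2 tumors cannot reach the threshold. The paired differences were 7 of 7 without any single array.

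With the replicate number as a block (numbers 1 to 6) 164 miRNAs and 3 of the 8 passed (mmu-miR-200c-3p added, 0.56, adjusted p = 0.0275), and miR-205-5p differed by 5.87 (adjusted p = 0.0112). Without the block the same 12 tumors, a fit added after seeing the data, gave 216 miRNAs. Tumors of the same number deviated with correlations of −0.26 to 0.21, and 0 of 6 matched its own number best. Numbers 1, 2, 4, 5 and 6 lay on the same slide in both diets. The labels name no pairing, and these 6 correlations cannot show whether tumors of the same number were handled together.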
